A study of Mus musculus with 14 samples.

Results

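Lin28a-only sites on shared genes are Lin28a-RIP peaks that had no base in common with any Igf2bp3-RIP peak, although the gene they were annotated to carried at least 1 Igf2bp3-RIP peak. Of 21616 Lin28a-RIP peaks, 8366 (38.7%) met this rule, and they were annotated to 1663 genes. Another 11327 peaks overlapped an Igf2bp3-RIP peak, and 1923 lay in 749 genes without any Igf2bp3-RIP peak. The rule used only peak positions, which include width, and gene identifiers. The peaks themselves were called from RIP reads, so signal entered through what was called.

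The study asked which transcripts Lin28a and Igf2bp3 bind in muscle stem cells (MuSCs) of mouse skeletal muscle. Lin28a+ MuSCs were, per the study's methods, sorted from animals carrying Lin28a-CreERT2 and LSL-tdTomato, in which cells that have switched on Lin28a become red, and control MuSCs are labelled only as the control genotype. Both groups were grown as untreated cultures on Matrigel. There were 2 libraries in each of 7 groups (14 in all), namely input RNA, m6A-RIP and Igf2bp3-RIP in both kinds of cell, and Lin28a-RIP in Lin28a+ MuSCs alone. RIP stands for RNA immunoprecipitation, in which RNA bound by an antibody's target is pulled down and sequenced, and the m6A-RIP pulls down RNA bearing N6-methyladenosine. No source used here gives the age or sex of the mice. The paper states in general that its experiments had biological replicates. How this applies to the 2 libraries of a group, or whether they came from separate cultures, is not said. The p-values therefore measure the spread between these libraries, which may be technical.

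Lin28a is an RNA-binding protein of embryonic cells with a cold shock domain and a CCHC zinc knuckle. It is best known for blocking the maturation of a family of microRNAs, whose precursors it holds through a GGAG motif, and it also binds many mRNAs. Igf2bp3 is an mRNA-binding protein of the fetal Igf2bp family, which reads m6A and keeps its target mRNAs from decay.

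Levels are given as CPM, the count scaled to the total of its library. The 2 Lin28a-RIP libraries held 36610494 and 33908110 counts in peaks, the 4 Igf2bp3-RIP libraries 9215355 to 34142094, the 4 input libraries 4842915 to 6220960 and the 4 m6A-RIP libraries 21350962 to 31830638. Lin28a's own RNA was not analysed here. Igf2bp3 RNA stood at 11.3 and 10.6 CPM in control input and at 35.8 and 34.3 in Lin28a+ input. All 26 listed markers of myogenic cells were in the input table, and they summed to 17805 to 18489 CPM, with Myod1, the myogenic regulator, between 4542 and 4775 CPM. Single markers moved apart, with Myf5 at 441 and 464 CPM in control and 198 and 202 in Lin28a+ input, and Pax7, the satellite cell factor, at 139 and 154 CPM against 195 and 190. Of 12 macrophage markers 6 were in the table, summing to 3.54 to 5.78 CPM, and Ptprc was at 0 counts in all 4 libraries. Of 12 endothelial markers 6 were in the table, 4 of them at 3 counts or fewer in every library, and they summed to 13.4 and 13.2 CPM in control and 4.15 and 3.72 in Lin28a+ cells. Fibro-adipogenic markers (6 of 12 in the table, Pdgfra at 0 or 1 count) summed to 151 and 160 CPM against 80.1 and 80.1. The list for pericytes and smooth muscle, which shares Des with the myogenic list, had 10 of 12 genes in the table and summed to 7392 and 7571 CPM in control, against 9014 and 9028 in Lin28a+ cells. The part that these shifts play in the RNA results was not tested, and in bulk libraries fewer cells of a type and less RNA per cell cannot be told apart.

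The genomic sequence of the sites was not analysed here. RefSeq microRNA hairpins lay under 7 Lin28a-only sites, at least in part, and they are shown because the precursor hairpin is the best described kind of Lin28a target. They were not particular to these sites. The 11327 overlapping peaks had 23 such hairpins, and the 1923 peaks in genes without Igf2bp3-RIP peaks had 12. The RefSeq sequences (GRCm38.p6, the build that matches mm10) are given 5′ to 3′ with GGAG in capitals.
Mir7018, chr4:137538286-137538370, plus strand: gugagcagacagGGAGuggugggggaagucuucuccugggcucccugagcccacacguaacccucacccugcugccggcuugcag
Mir704, chr6:47803576-47803652, minus strand: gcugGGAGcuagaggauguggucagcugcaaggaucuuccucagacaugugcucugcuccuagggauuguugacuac
Mir6944, chr13:55477681-55477776, minus strand: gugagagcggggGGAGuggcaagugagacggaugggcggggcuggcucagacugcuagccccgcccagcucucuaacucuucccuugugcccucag
Mir6995, chr19:47273519-47273589, minus strand: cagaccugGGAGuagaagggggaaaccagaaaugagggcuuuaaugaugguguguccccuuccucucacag
Mir6904, chr1:180587201-180587267, plus strand: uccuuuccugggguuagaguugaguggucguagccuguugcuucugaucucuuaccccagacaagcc
Mir7682, chr1:151442393-151442450, plus strand: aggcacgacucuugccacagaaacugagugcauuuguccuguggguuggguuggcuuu
Mir6932, chr11:107637722-107637779, plus strand: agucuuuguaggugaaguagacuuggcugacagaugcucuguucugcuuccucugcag
GGAG occurred on the hairpin strand in 4 of the 7, against 443 of 997 hairpins in the RefSeq table (44.4%). The site over Mir7018 held 8257 and 7413 Lin28a-RIP counts (225 and 219 CPM) over 516 bp, the site over Mir704 held 4354 and 3664 counts, and the site over Mir6932 held 84 and 125 counts. These counts cannot be assigned to a microRNA. All 128 Lin28a-only sites annotated to one of 49 microRNA genes also lay within a protein-coding gene, for example 16 sites annotated to Mir7018 in Hspg2, which encodes the basement membrane proteoglycan perlecan, 11 annotated to Mir5626 in Myo1e, and 5 annotated to Mir704 in Pdia4. RIP fragments of the host transcript and of the hairpin would be counted alike.

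Another kind of sequence under these sites was the start of a transcript. In 94 of the 8366 sites the peak covered the whole of the first 30 bases of a RefSeq start of its gene, against 78 of the overlapping peaks. The 30 bases are shown for the 5 such genes with the highest Lin28a-RIP level, again with GGAG in capitals and in the DNA letters of the reference.
Hspa5, chr2:34772090-34772119, plus strand: tcgatactggccgagacaacactgacctgg
Sfpq, chr4:127021301-127021330, plus strand: gaggacaaaggcggcgcgcagcttgtgtcg
Ddx5, chr11:106788465-106788494, minus strand: acctcattcatttccatcggtccttgccct
Ahnak, chr19:8989284-8989313, plus strand: cggccacttGGAGcagctctgccgcgggga
Myh9, chr15:77842146-77842175, minus strand: tcttggaagggcggggcagGGAGggcggcg
GGAG on the transcribed strand was present in 30 of 99 starts so covered (30.3%), in 30 of 80 starts under overlapping peaks (37.5%) and in 7488 of all 32851 starts in the table (22.8%). Hspa5, which encodes the endoplasmic reticulum chaperone BiP, had 340 and 340 CPM at its start and an Igf2bp3-RIP peak 282 bp away. Myh9, a non-muscle myosin heavy chain, had 134 and 149 CPM at its start, and its nearest Igf2bp3-RIP peak was 28418 bp away.

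The distance to the nearest Igf2bp3-RIP peak of the same gene, counted as bases between the facing edges, had a median of 2848 bp over the 8366 sites (95% interval of the median 2721 to 2981 bp) and quartiles of 1050 and 7520 bp. It is a genomic distance and includes introns. Only 38 sites (0.454%) lay within 100 bp of an Igf2bp3-RIP peak, 996 (11.9%) within 500 bp, 1993 (23.8%) within 1 kb and 5432 (64.9%) within 5 kb, while 167 (2.00%) lay more than 50 kb away. In 273 sites an Igf2bp3-RIP peak annotated to another gene was nearer than that of the same gene. The nearest Igf2bp3-RIP peak itself overlapped a different Lin28a-RIP peak for 7801 sites (93.2%), and it was bound in Igf2bp3-RIP alone for 565 (6.75%). For comparison, 8835 of the 10041 Igf2bp3-RIP peaks in these genes (88.0%) overlapped a Lin28a-RIP peak.

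**Figure D1:**
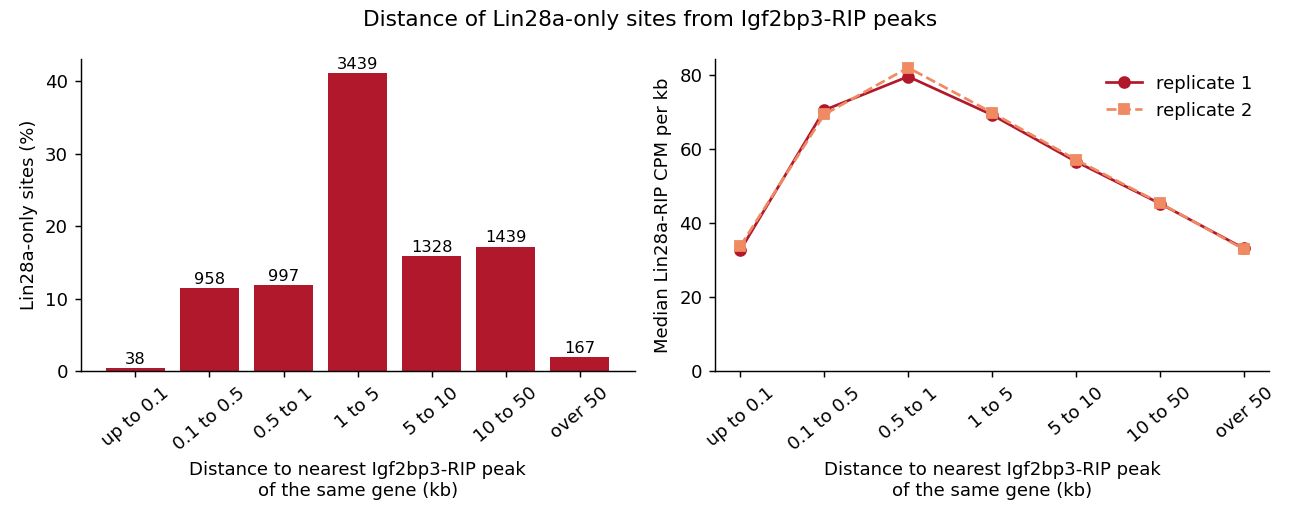
Left, the percent of the 8366 Lin28a-only sites in each class of distance (kb) to the nearest Igf2bp3-RIP peak of the same gene, with the number of sites above each bar; the class from 1 to 5 kb holds 3439. Right, the median Lin28a-RIP level (CPM per kb of peak) of the sites in each class in replicate 1 (circles) and replicate 2 (squares); it stands highest between 0.5 and 1 kb and is lower at both ends.

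The Lin28a-RIP level differed along this distance. The median was 79.6 and 82.0 CPM per kb of peak in replicates 1 and 2 for sites 500 to 1000 bp away and 69.3 and 69.9 for those 1 to 5 kb away. It was 45.3 and 45.5 at 10 to 50 kb and 33.2 and 33.0 beyond 50 kb, and the 38 closest sites were also low at 32.7 and 33.8. The differences between these classes exceeded those between the replicates, but no test over samples was run. Peaks are not replicates, and Lin28a-RIP had only 2 libraries, both of 1 group.

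The 5 sites nearest to an Igf2bp3-RIP peak all had less Lin28a-RIP signal per kb than the median site. A site annotated to Anxa3, which encodes an annexin, at chr5:96783707-96784624 lay 3 bp from its Igf2bp3-RIP peak and had 393 and 319 Lin28a-RIP counts (10.7 and 9.41 CPM). A second site annotated to Anxa3 lay 29 bp from the other side of the same peak, with 152 and 158 counts. That Igf2bp3-RIP peak had 16.7 and 24.7 CPM in control, against 5.31 and 4.598 in Lin28a+ Igf2bp3-RIP, a difference that did not pass the test between the groups. The other 3 were sites in Brip1, which encodes a helicase partner of Brca1, 17 bp away with 93 and 111 counts, in Mrps25, a mitochondrial ribosomal protein gene, 23 bp away with 390 and 281 counts, and in Zdhhc17, a palmitoyltransferase gene, 36 bp away with 415 and 354 counts. At the far end, 1 site annotated to Crim1 at chr17:77674499-77674698 lay 699857 bp from the Igf2bp3-RIP peak of that gene, had 82 and 112 counts and fell outside the reference gene. The next 4 were in Snd1, which encodes a Tudor domain nuclease, within the gene and 359341 to 364163 bp from its only Igf2bp3-RIP peak. The farthest of these, at chr6:28887902-28888756, had 171 and 168 CPM, so a long distance did not go with a low level in every gene.

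Along the genes, Lin28a-only sites were interspersed with overlapping peaks and also formed runs of their own. Of the sites, 4767 (57.0%) had an overlapping peak as the next Lin28a-RIP peak of the gene on at least 1 side, 3519 had only other Lin28a-only sites beside them, and 80 were the only Lin28a-RIP peak of their gene. Unbroken runs numbered 3864, of which 2126 held 1 site and 379 held 5 or more, and the longest had 26 consecutive sites in Col4a2, a basement membrane collagen gene. With the strand taken from RefSeq (6563 sites), 4053 (61.8%, Wilson 95% interval 60.6 to 62.9) lay between Igf2bp3-RIP peaks of the gene, 1557 (23.7%, 22.7 to 24.8) lay 5′ of all of them and 953 (14.5%, 13.7 to 15.4) lay 3′ of all of them. The intervals of the 5′ and 3′ shares did not meet. The median site lay at 60.8% of the length of its gene (59.6 to 61.9) and the median overlapping peak at 69.9% (68.9 to 71.0). In genes without Igf2bp3-RIP peaks the median Lin28a-RIP peak lay at 62.7% (60.5 to 65.4), an interval that met that of the sites. The last 10% of the gene length held 828 Lin28a-only sites (12.6%, 11.8 to 13.4) and 1873 overlapping peaks (21.0%, 20.2 to 21.9), and the first 10% held 276 (4.21%, 3.75 to 4.72) and 221 (2.48%, 2.18 to 2.83). These intervals treat peaks as independent, which peaks of 1 gene are not, and all intervals here cover counting error only. Exons, introns and UTRs were not assigned.

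**Figure D2:**
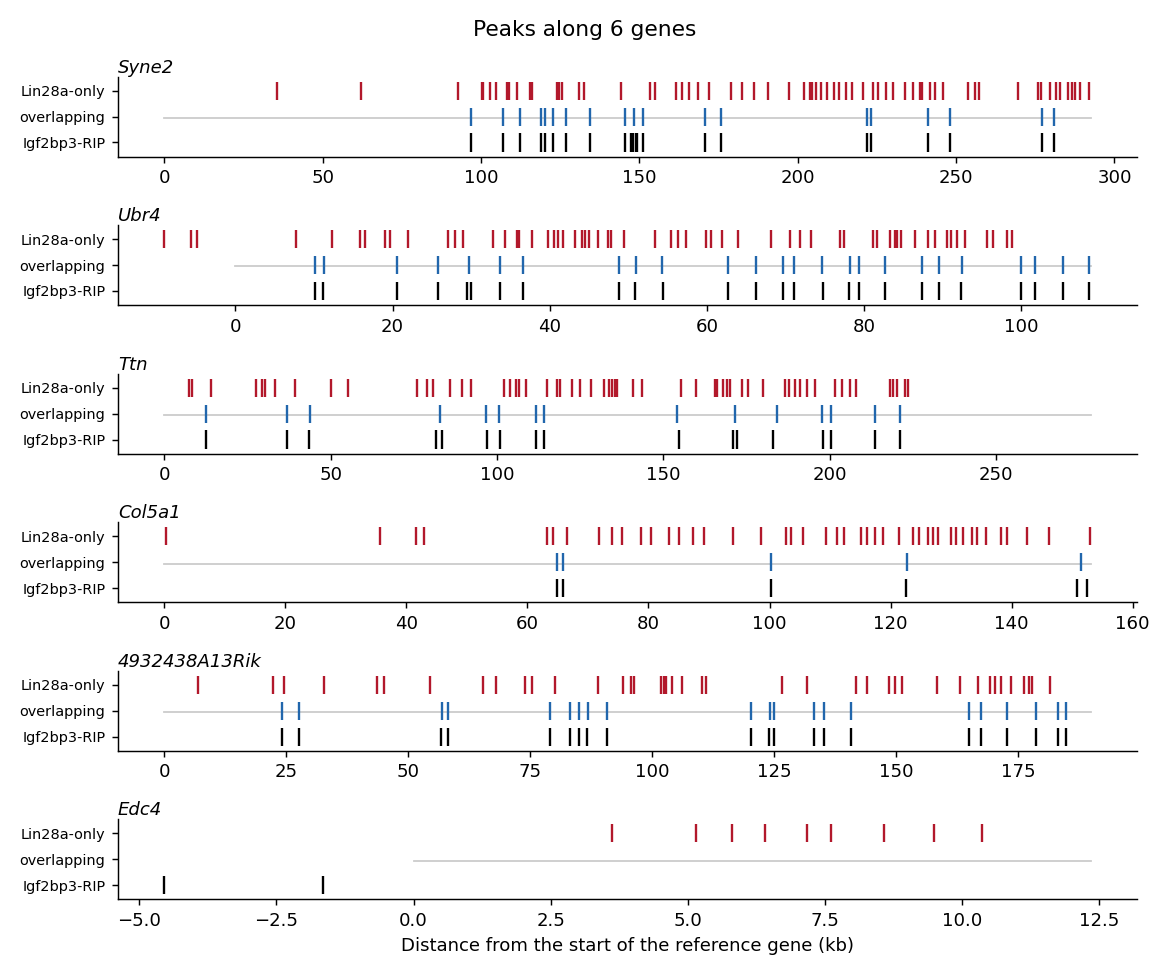
Centres of Lin28a-only sites (red), Lin28a-RIP peaks that overlap an Igf2bp3-RIP peak (blue) and Igf2bp3-RIP peaks (black) along 6 genes, as distance in kb from the start of the reference gene (grey line, its extent). Lin28a-only sites lie among the overlapping peaks and also outside them, as before the first one in Syne2, Ubr4 and Col5a1, while the 2 Igf2bp3-RIP peaks annotated to Edc4 lie before its start.

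Lin28a-only sites were narrow. Their median width was 251 bp (249 to 252), that of overlapping peaks 330 bp (328 to 334) and that of peaks in genes without Igf2bp3-RIP peaks 251 bp (247 to 257). Widths over 1 kb occurred in 83 Lin28a-only sites (0.992%) and 1178 overlapping peaks (10.4%). Among all Lin28a-RIP peaks of shared genes the Lin28a-only share was 61.7% (60.6 to 62.9) at 200 bp to under 250 bp, 31.3% (30.1 to 32.5) at 300 bp to under 500 bp and 6.59% (5.35 to 8.09) at 1 kb or more. Width and overlap are tied by construction, since a wider peak has more bases that can meet another peak.

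Per length, the sites carried slightly less Lin28a-RIP signal than the overlapping peaks. The median was 623 counts (17.0 CPM) in replicate 1 and 580 counts (17.1 CPM) in replicate 2, against 965 (26.4 CPM) and 893 (26.3 CPM) for overlapping peaks. Per kb of peak the medians were 62.1 and 62.4 CPM for Lin28a-only sites, 67.3 and 67.8 for overlapping peaks, and 44.5 and 43.7 for peaks in genes without Igf2bp3-RIP peaks. The quartiles of the sites, 38.4 and 111 CPM per kb in replicate 1, lay close to those of the overlapping peaks, 39.8 and 126. In the 1543 genes that held both kinds, the median site was lower than the median overlapping peak of the same gene in 1117 genes (72.4%) in replicate 1 and in 1120 (72.6%) in replicate 2, with a median log2 difference of -0.22 and -0.21. Replicates of a site differed by an SD of 0.17 on the log2 scale (0.15 for overlapping peaks). In all, Lin28a-only sites took 25.3% and 25.2% of the Lin28a-RIP counts, and overlapping peaks 69.9% and 70.0%. No control antibody and no input count at these positions were analysed here, so the counts also reflect how abundant the RNA was.

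**Figure D3:**
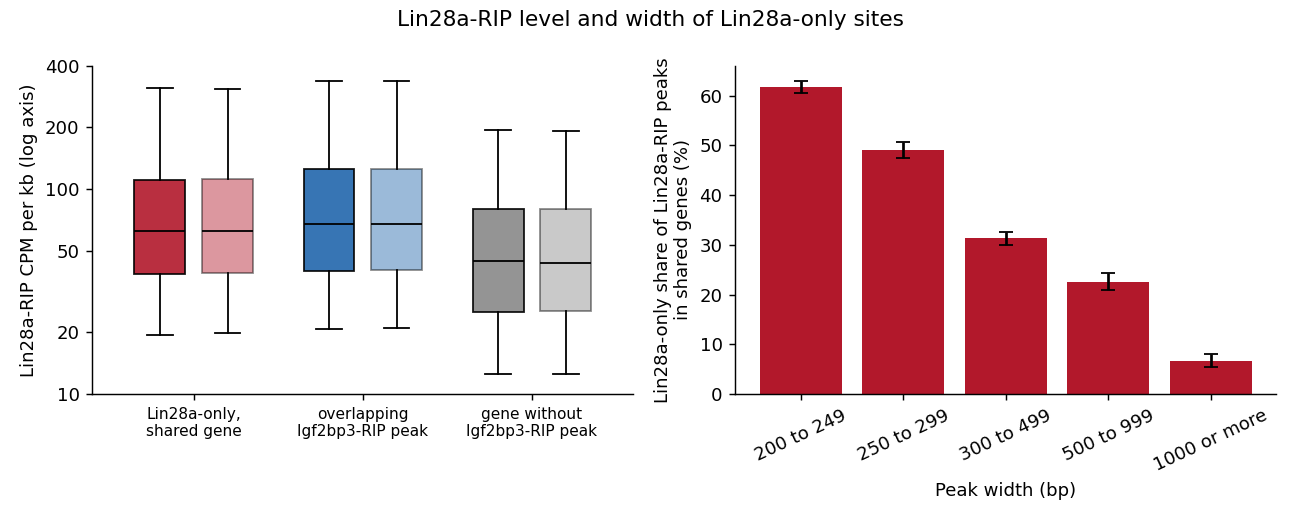
Left, Lin28a-RIP level (CPM per kb of peak, log axis) of Lin28a-only sites in shared genes (red), peaks overlapping an Igf2bp3-RIP peak (blue) and peaks in genes without Igf2bp3-RIP peaks (grey), replicate 1 dark and replicate 2 light; boxes give the median and quartiles and whiskers the 5th and 95th percentiles. Right, the Lin28a-only share (%) of Lin28a-RIP peaks in shared genes by peak width (bp) with Wilson 95% intervals, which falls from 61.7% to 6.59%.

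The sites with the highest counts included those of a chaperone and of several cytoskeletal genes. Of the 10 highest, 3 were in Hsp90ab1, the constitutive cytosolic chaperone Hsp90. Its site at chr17:45571535-45572021 had 1044 and 1060 CPM and lay 813 bp from an Igf2bp3-RIP peak, that at chr17:45568927-45569247 had 859 and 852 CPM and lay 209 bp away, and that at chr17:45571124-45571329 had 462 and 434 CPM and lay 402 bp away. By CPM per kb they ranked 3, 1 and 2 among the 8366 sites. A site in Tubb5, a beta-tubulin gene, at chr17:35835612-35835843 had 438 and 454 CPM and ranked 4 per kb. Lmna, which encodes the nuclear lamins A and C, held 2 of the 10, with 642 and 618 CPM at chr3:88481153-88482212 and 459 and 430 CPM at chr3:88484652-88485291, at 20922 and 17843 bp from its only Igf2bp3-RIP peak. Plec, which encodes the cytolinker plectin, also held 2, with 573 and 553 CPM and 447 and 448 CPM, and Flnc, the muscle filamin, and Ddb1, a DNA damage-binding subunit of a ubiquitin ligase, held 1 each, with 515 and 498 CPM and 488 and 490 CPM. The Plec, Flnc and Ddb1 sites were over 1 kb wide and ranked between 160 and 402 per kb.

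By gene, the median was 3 Lin28a-only sites (quartiles 1 and 6). There was 1 site in 471 genes (28.3%), while the 232 genes with 10 or more held 3811 sites (45.6%). The most sites were in giant genes. Syne2, which encodes the nuclear envelope protein nesprin 2, had 66 of its 85 Lin28a-RIP peaks free of Igf2bp3-RIP overlap, Ubr4, an N-recognin ubiquitin ligase, had 61 of 86, and Ttn, which encodes titin of the sarcomere, had 59 of 74. Vps13c, a lipid transfer protein gene, had 49 of 63, and Col5a1, a fibrillar collagen gene, had 45 of 50. Then came 4932438A13Rik with 41 of 62, Col12a1 with 39 of 56, Herc2 with 39 of 74, Trrap with 36 of 52 and Lrp1 with 35 of 52. Mdn1 with 35 of 86 and Mycbp2 with 35 of 67 tied with Lrp1 and were left out of the 10 by alphabetical order. The share of the gene's Lin28a-RIP counts in these sites was 63.8% and 62.9% in Syne2, 59.6% and 59.9% in Ubr4, 60.9% and 61.6% in Ttn, 73.6% and 72.6% in Col5a1 and 41.9% and 42.9% in Herc2. Lrp1, the low-density lipoprotein receptor-related endocytic receptor, had the largest sum over its sites among these 10, at 6178 and 6195 CPM. By construction, more Igf2bp3-RIP peaks in a gene leave fewer Lin28a-RIP peaks free of them. As a description, the Lin28a-only share of the Lin28a-RIP peaks ranged from 70.2% (68.0 to 72.3) of 1701 peaks in genes with 1 to 30.5% (29.2 to 31.9) of 4411 peaks in genes with 16 or more.

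**Figure D4:**
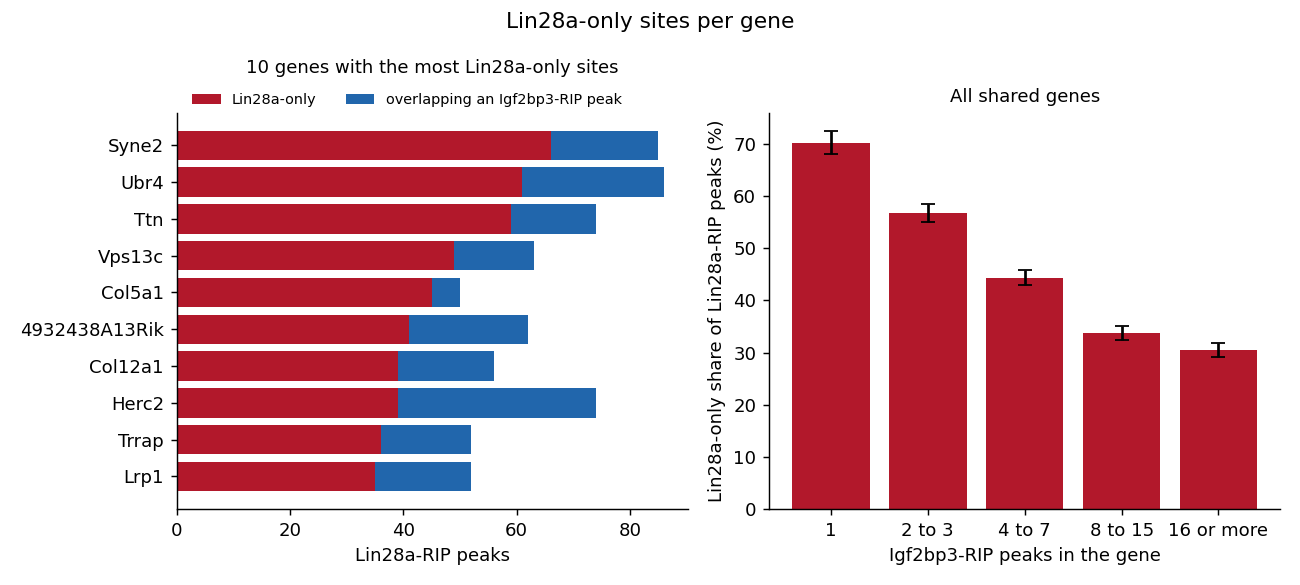
Left, number of Lin28a-RIP peaks that are Lin28a-only (red) or overlap an Igf2bp3-RIP peak (blue) in the 10 genes with the most Lin28a-only sites, from Syne2 with 66 of 85 to Lrp1 with 35 of 52. Right, the Lin28a-only share (%) of the Lin28a-RIP peaks of shared genes by the number of Igf2bp3-RIP peaks in the gene, with Wilson 95% intervals, from 70.2% to 30.5%, a description tied to the rule by construction.

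In 120 genes all Lin28a-RIP peaks were Lin28a-only sites, and 23 of these genes had 3 or more. The highest summed Lin28a-RIP level was that of Edc4, a scaffold of the mRNA decapping complex, with 9 sites that summed to 278 and 274 CPM. It was followed by Zswim8, a ubiquitin ligase receptor of microRNA decay, with 7 sites (145 and 139 CPM), Sun1, a partner of nesprins in the inner nuclear membrane, with 9 sites (114 and 112 CPM), and Slc38a10, a solute carrier gene, with 4 (115 and 108 CPM). Mtus2, Nol11, Afap1, Unc45a and Rasa3 came next, with 5 to 7 sites each and sums from 101 and 101 down to 60.9 and 61.0 CPM. The Igf2bp3-RIP peaks that put these genes among the shared ones were often not in them. Both Igf2bp3-RIP peaks annotated to Edc4 lay in the neighbouring gene Nutf2, that of Sun1 lay in Dnaaf5, that of Nol11 in Pitpnc1 and that of Unc45a in Man2a2, and for Mtus2 the peak and 4 of the 5 sites lay in Slc7a1. In Zswim8, Slc38a10, Afap1 and Rasa3 the Igf2bp3-RIP peaks were within the gene.

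This held more widely. Of the 8366 sites, 899 (10.7%) lay outside the RefSeq extent of the gene they were annotated to, and 873 of these (97.1%) lay within another protein-coding gene. For 841 sites in 309 genes no Igf2bp3-RIP peak annotated to the gene fell within it. The 2 Anxa3 sites nearest to an Igf2bp3-RIP peak lay, like that peak, in Fras1. Where a site and an Igf2bp3-RIP peak were required instead to lie within the extent of the same protein-coding gene, the number of Lin28a-only sites was 8551.

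The gene lists differed in how far their Lin28a-RIP peaks were Lin28a-only, beside 42.5% (41.8 to 43.2) over all 19685 Lin28a-RIP peaks of the 2738 shared genes. Genes of the extracellular matrix had 396 of 569 peaks (69.6%, 65.7 to 73.2), led by Col5a1 and Col12a1, and genes of the nuclear pore and mRNA transport had 202 of 369 (54.7%, 49.6 to 59.8), led by the scaffold nucleoporins Nup155 with 27 of 31 and Nup205 with 26 of 29. DNA repair and damage response had 309 of 651 (47.5%, 43.7 to 51.3) with Herc2 and Pole, the catalytic subunit of DNA polymerase epsilon, at 28 of 33. Mitosis and chromosome segregation had 331 of 780 (42.4%, 39.0 to 45.9) with the centrosomal scaffolds Akap9 (28 of 38) and Pcnt (19 of 25), and giant cytoskeletal and motor genes had 352 of 857 (41.1%, 37.8 to 44.4) with Syne2 and Ttn. Shares were lower for splicing and RNA processing (205 of 585, 35.0%, 31.3 to 39.0), where the m6A reader helicase Ythdc2 had 16 of 18 and Snrnp200 had 13 of 27. Chromatin modifiers had 300 of 861 (34.8%, 31.7 to 38.1), with Trrap and Ep400 (17 of 34), and ubiquitin ligases and deubiquitinases had 327 of 949 (34.5%, 31.5 to 37.5), with Ubr4 and Herc2.

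Lists with few Lin28a-RIP peaks had wide intervals. The TCA cycle and pyruvate list had 25 of 38 peaks Lin28a-only (65.8%, 49.9 to 78.8), with Aco1 at 10 of 11 and Sucla2 at 6 of 7. Respiratory chain subunits had 18 of 29 (62.1%, 44.0 to 77.3), with Ndufs1 at 11 of 16 and Cox6c at 5 of 6. Cytosolic ribosomal proteins had 5 of 16, in Rps6 and Rps13, and oxidative stress response genes had 4 of 23, all 4 in Txnrd1, which encodes thioredoxin reductase. Of the myogenic markers, 3 genes held 10 of 29 peaks as Lin28a-only sites, 8 of them in Ncam1 and 1 in Chrnb1, the beta subunit of the acetylcholine receptor. No marker of fibro-adipogenic progenitors, endothelial cells or macrophages had a Lin28a-RIP peak, and of the pericyte list only Mcam held such sites, 7 of 8.

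The DNA repair genes that the study measured by RIP-qPCR had a lower share. This panel of 21 genes was chosen by the study on these samples, so its peaks are not independent evidence. It held 218 Lin28a-RIP peaks, of which 44 (20.2%, 15.4 to 26.0) were Lin28a-only, in 13 genes. Bard1, the partner of Brca1, had the highest share with 7 of 10, at 85.3 and 86.5 CPM of the 165 and 166 CPM over the gene, and at 264 to 20887 bp from an Igf2bp3-RIP peak. Smchd1 had 7 of 39, Trip12 5 of 36, Pds5a 4 of 26, Usp7 4 of 20 and Supt16 2 of 20. Fewer Lin28a-RIP peaks were found in Smarcad1 with 3 of 12, Fancm with 3 of 6, Upf1 with 2 of 3, and Dcp2, Msh3 and Ttf2 with 1 each. Usp1, Wrn, Ino80d, Palb2, Ercc3, Fbxw7, Slf2 and Vcpip1 had none. Fancm, the Fanconi anaemia DNA translocase, had 9.29 and 9.73 CPM over its 3 sites, at 1273 to 3517 bp from an Igf2bp3-RIP peak.

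The 3 panel sites closest to an Igf2bp3-RIP peak were in Trip12, Usp7 and Msh3. In Trip12, a ubiquitin ligase gene, the site at chr1:84757475-84757715 had 37.5 and 38.9 CPM in Lin28a-RIP and lay 105 bp from a peak with 45.1 and 42.8 CPM in control, against 33.6 and 39.5 in Lin28a+ Igf2bp3-RIP. In the deubiquitinase gene Usp7, the site at chr16:8738204-8738536 had 23.6 and 23.4 CPM and lay 122 bp from a peak with 28.5 and 10.3 CPM in control, against 25.3 and 6.80 in Lin28a+ cells. There, replicate 1 was high and replicate 2 low in both groups, and the groups overlapped. In the mismatch repair gene Msh3, the site at chr13:92212498-92212697 had 123 and 78 counts (3.36 and 2.30 CPM) and lay 137 bp from a peak with 6.40 and 4.93 CPM in control, against 4.44 and 6.97 in Lin28a+ cells. None of these 3 Igf2bp3-RIP peaks passed the test between the groups.

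Whether the genes with Lin28a-only sites differed in RNA between Lin28a+ and control MuSCs was tested in input RNA with edgeR's quasi-likelihood test over 11317 genes. Of 1469 such genes tested, 928 (63.2%) passed an adjusted p of 0.05, where 56.8% of all genes did. RNA was higher in Lin28a+ cells for 258 (17.6%) and lower for 670 (45.6%), where 28.1% of all genes were higher and 28.7% lower. The median log2 fold change was -0.23 over these genes and 0.01 over all genes tested. Genes whose Lin28a-RIP peaks all overlapped Igf2bp3-RIP peaks had a median of -0.37 with 98 of 850 higher and 463 lower, and genes with Lin28a-RIP but no Igf2bp3-RIP peaks had 0.17 with 240 of 589 higher and 104 lower. Among genes with 10 or more Lin28a-only sites, 52 of 228 were higher and 99 lower (median -0.17), and among those with 1 site 52 of 379 were higher and 175 lower (median -0.26).

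The number of calls depended on the tool. With DESeq2, 410 of 1480 such genes passed, 105 higher and 305 lower, where 25.1% of all genes passed, 12.7% higher and 12.5% lower. The deposited input values are estimated counts, and at the median gene the libraries of a group were closer than reads drawn at random would be (the median gene's chi-square between libraries was 0.224 in control and 0.168 in Lin28a+ cells, where sampling noise alone gives 0.455), so edgeR's p-values and standard errors in the input may be too small. The mean chi-square was 4.71 in control and 1.01 in Lin28a+ cells, where noise gives 1, so some genes differed between the control libraries by more than sampling noise.

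**Figure D5:**
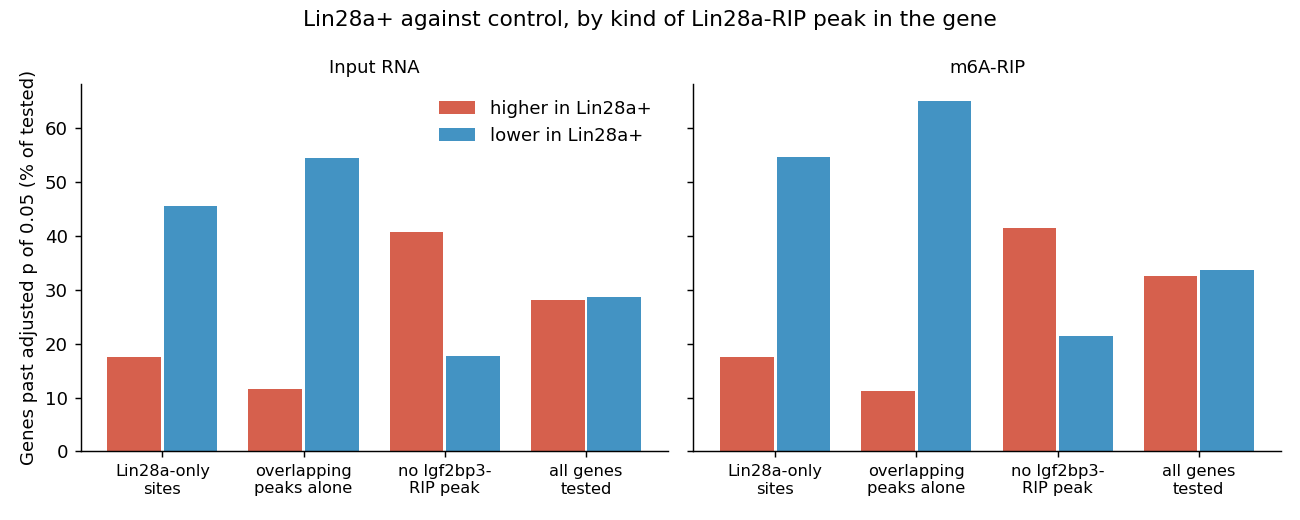
Percent of tested genes with higher (red) or lower (blue) values in Lin28a+ than in control MuSCs at an adjusted p of 0.05 (edgeR), for input RNA (left) and m6A-RIP (right), by the kind of Lin28a-RIP peak in the gene. Of the genes with Lin28a-only sites, 17.6% were higher and 45.6% lower in input RNA, and 17.6% higher and 54.6% lower in m6A-RIP. Of the genes with overlapping peaks alone, 54.5% were lower in input RNA and 65.0% in m6A-RIP. Of those with no Igf2bp3-RIP peak, 17.7% and 21.4% were lower.

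By p, the first 3 higher genes were Selp, Tubb5 and Mcam. Selp, which encodes the adhesion receptor P-selectin and held 12 Lin28a-only sites, had 1.65 and 1.45 CPM in control input, against 53.6 and 51.8 in Lin28a+ input (log2 fold change 5.05, SE 0.09, adjusted p 4.48e-06 by edgeR). These are 9 and 9 counts against 271 and 251. Selp thus entered the test through the Lin28a+ libraries, and it was not tested where every library had to hold at least 10 counts. Tubb5 had 898 and 939 CPM in control input, against 1985 and 1991 in Lin28a+ input (1.08, SE 0.02, adjusted p 5.20e-06 by edgeR). Mcam, an adhesion molecule on the pericyte list, had 6.59 and 5.79 CPM in control input, against 56.8 and 56.6 in Lin28a+ input (3.17, SE 0.07, adjusted p 5.99e-06 by edgeR). The first 3 lower genes encode proteins of the cell surface and matrix. Col18a1, a basement membrane collagen gene with 9 sites, had 429 and 457 CPM in control input, against 31.6 and 29.5 in Lin28a+ input (-3.89, SE 0.05, adjusted p 1.42e-06 by edgeR). Megf10, a receptor of satellite cells, had 398 and 400 CPM against 87.4 and 88.2, and Sdc3, the proteoglycan syndecan 3, had 334 and 356 CPM against 91.8 and 90.7. The rule that named these 6 genes required groups that did not overlap.

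Of the 10 genes with the most Lin28a-only sites, 8 had lower RNA in Lin28a+ cells by edgeR and none was higher. Over all genes tested, 28.7% were lower by edgeR and 12.5% by DESeq2. Over all genes with Lin28a-only sites, 45.6% were lower by edgeR and 20.6% by DESeq2. Mdn1 and Mycbp2, tied with Lrp1 in sites, are not counted here. Ttn had 92.0 and 94.2 CPM in control input, against 38.4 and 38.6 in Lin28a+ input, Lrp1 had 252 and 261 against 126 and 127, and Herc2 had 41.2 and 40.4 against 21.0 and 23.8. Vps13c, 4932438A13Rik, Col12a1, Trrap and Col5a1 were also lower, with log2 fold changes from -0.83 to -0.13. By DESeq2 the calls for Trrap, Col5a1 and 4932438A13Rik were lost. That of Trrap was also lost without any 1 of the 4 input libraries. That of Col5a1 was also lost without control replicate 2 or 1 of the Lin28a+ libraries, with scaling to total counts and with no filter on low counts. Syne2, with 4.03 and 4.18 CPM against 3.76 and 4.34, and Ubr4, with 94.95 and 99.66 CPM against 93.9 and 97.5, did not pass the test (adjusted p 0.902 and 0.472 by edgeR), and their groups overlapped.

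In the DNA repair panel, 12 of the 13 genes with a Lin28a-only site were tested and all 12 passed with edgeR, 3 higher and 9 lower, where 56.8% of all genes passed. Bard1 was higher, at 52.5 and 54.8 CPM in control and 82.5 and 88.2 in Lin28a+ input (log2 fold change 0.64, SE 0.05, adjusted p 1.59e-04 by edgeR). Upf1 and Ttf2 were also higher, by 0.27 and 0.34 on the log2 scale. Trip12 was lower, with 47.2 and 49.0 CPM against 28.5 and 30.4. Fancm had 4.39 and 4.66 CPM against 2.17 and 2.89, on 24 and 29 against 11 and 14 counts. With DESeq2 4 of 13 passed, where 25.1% of all genes did, among them Bard1, Supt16 and Trip12, and each of the 8 that lost the call with DESeq2 also lost its edgeR call without at least 1 of the 4 input libraries.

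The other lists are read against the shares over all genes tested with edgeR, 28.1% higher and 28.7% lower, and with DESeq2, 12.7% higher and 12.5% lower. Of the ubiquitin ligases and deubiquitinases with Lin28a-only sites, 25 of 31 were lower and 1 higher by edgeR (17 lower and 0 higher by DESeq2). Of the giant cytoskeletal and motor genes, 19 of 27 were lower and 1 higher (15 and 1 by DESeq2), and of the extracellular matrix genes 17 of 21 were lower and 3 higher (14 and 3 by DESeq2). For chromatin modifiers 28 of 48 were lower and 4 higher by edgeR, but 6 of 48 lower and 3 higher by DESeq2. For splicing and RNA processing, with Zc3h11a counted under 2 identifiers, 22 of 44 were lower and 7 higher by edgeR, but 7 lower and 2 higher by DESeq2. The remaining lists lay nearer to the shares over all genes or were short. DNA repair and damage response had 16 of 41 lower and 9 higher by edgeR (6 and 5 of 43 by DESeq2), mitosis and chromosome segregation 10 of 43 lower and 15 higher (4 and 7 of 44 by DESeq2), and the nuclear pore 7 of 20 lower and 6 higher (4 and 3 by DESeq2). In the TCA cycle list 1 of 5 was lower and 3 higher by edgeR (1 and 0 by DESeq2), and 3 of 4 respiratory chain genes and 2 of 2 ribosomal protein genes were higher by both tools. The 3 myogenic markers with Lin28a-only sites and the single oxidative stress gene were lower by both tools.

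Of the genes named above as bound in Lin28a-only sites alone, Edc4 was higher in RNA (23.1 and 25.2 CPM in control, 31.0 and 31.6 in Lin28a+) and Rasa3 lower (48.7 and 49.4, 39.4 and 41.9), both by edgeR but not by DESeq2, and Edc4 not without control replicate 1, nor Rasa3 without 1 of the Lin28a+ libraries. Sun1, Zswim8, Slc38a10, Nol11, Afap1 and Unc45a did not pass. The genes named for their highest sites gave both directions. Flnc (828 and 855 CPM against 1012 and 1029), Lmna (535 and 552 against 645 and 632) and Ddb1 (275 and 286 against 331 and 329) were higher, Plec (109 and 112 against 79.9 and 80.9) was lower, and Hsp90ab1 (1208 and 1256 against 1285 and 1286) did not pass.

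The m6A-RIP table has no positions, so its rows were summed per gene and could be compared with the sites only by gene. Of 1355 genes with Lin28a-only sites tested, 978 (72.2%) passed an adjusted p of 0.05 with edgeR, where 66.3% of all 9416 genes did. The m6A-RIP count was higher in Lin28a+ cells in 238 genes (17.6%) and lower in 740 (54.6%), where 32.5% of all genes were higher and 33.8% lower. The median log2 fold change was -0.26, beside 0.01 over all genes. Genes whose Lin28a-RIP peaks all overlapped Igf2bp3-RIP peaks had a median of -0.41, with 99 of 883 higher and 574 lower. Genes with Lin28a-RIP but no Igf2bp3-RIP peaks had 0.13, with 219 of 529 higher and 113 lower. The m6A-RIP values are pull-down counts that were not divided by input, and so they are not methylation levels.

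Selp had 3.58 and 3.47 CPM in control, against 103 and 103 in Lin28a+ m6A-RIP (log2 fold change 4.97, SE 0.08, adjusted p 3.93e-13 by edgeR), Tubb5 had 868 and 866 against 1672 and 1706, and Atp2b4, a plasma membrane calcium pump gene with 6 sites, had 37.98 and 36.06 against 124 and 120. Col18a1 had 766 and 790 CPM against 42.4 and 42.0 (-4.10, SE 0.05, adjusted p 2.43e-14 by edgeR), Sdc3 had 831 and 859 against 214 and 218, and Akap12, a scaffold of protein kinase A with 1 site, had 179 and 186 against 29.2 and 25.9. The same rule named these 6 genes. Selp, Tubb5, Col18a1 and Sdc3 were named in input RNA and in m6A-RIP, each in the same direction. In the panel, 3 of 13 genes were higher and 5 lower in m6A-RIP, near the 32.5% and 33.8% of all genes, with Ttf2 among the higher ones but not without control replicate 2 or either Lin28a+ library. Bard1 had 12.1 and 10.9 CPM in control, against 20.2 and 18.2 in Lin28a+ m6A-RIP, and Fancm had 10.4 and 10.2 against 6.23 and 6.48.

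The Igf2bp3-RIP peaks nearest to the sites were compared between Lin28a+ and control MuSCs over all 19465 peaks. The 8366 sites had 3984 different nearest peaks, whose median level was 75.2 and 71.7 CPM per kb in control and 69.0 and 69.9 in Lin28a+ Igf2bp3-RIP. Of these peaks 3 (0.0753%) passed an adjusted p of 0.05 with edgeR, all higher in Lin28a+ cells, where 0.123% of all peaks did, and 188 (4.72%) had an unadjusted p under 0.05, where 5.22% of all peaks did. Both the number and the direction of these calls depended on the fit. There were 11 higher and 6 lower peaks without control replicate 1, 6 and 3 without control replicate 2, 12 and 8 without Lin28a+ replicate 1, and 14 and 3 without Lin28a+ replicate 2. DESeq2 gave 18 higher and 10 lower. Requiring at least 10 counts in every library gave 0 calls, and that minimum removed the called peaks annotated to Mocs1 before the test. A fit with the replicate number as a block, whose counts stand with the processing alternatives, called many more peaks and mostly lower ones, so no direction is read from the 3 calls. The median log2 fold change was -0.12 for the nearest peaks and -0.01 for all peaks.

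The 3 called peaks were in Selp and, by annotation, Mocs1. The Selp peak at chr1:164149016-164149300 had 2.93 and 1.49 CPM in control, against 58.6 and 70.1 in Lin28a+ Igf2bp3-RIP (log2 fold change 4.91, SE 0.43, adjusted p 0.0424 by edgeR), and was the nearest peak of 5 Lin28a-only sites, the closest of them 492 bp away with 25.02 and 24.3 CPM in Lin28a-RIP. The peak at chr17:49479736-49480086 had 0.217 and 0.435 CPM in control, against 11.02 and 7.527 in Lin28a+ cells (4.61, SE 0.48, adjusted p 0.0424 by edgeR). These are 2 and 12 counts against 139 and 257. The peak at chr17:49457420-49457621 had 0.651 and 0.471 CPM against 6.58 and 8.49 (3.79, SE 0.41, adjusted p 0.0469 by edgeR), on 6 and 13 counts against 83 and 290. The fold changes of both peaks thus rest on few control counts. The groups did not overlap in any of the 3, which is no support beyond the calls that picked these peaks. Both of the latter were annotated to Mocs1, a molybdenum cofactor gene, with 5 Lin28a-only sites, but all 7 features lay within Daam2, a formin gene of Wnt signalling. In input RNA Mocs1 had 4.39 and 4.82 CPM in control input, against 4.35 and 5.58 in Lin28a+ cells, while Daam2 had 2.01 and 1.61 against 22.9 and 22.3 (log2 fold change 3.61, SE 0.11, adjusted p 1.18e-05 by edgeR). In m6A-RIP the rows annotated to Mocs1 had 1.23 and 1.87 CPM against 25.9 and 27.6. Daam2 was looked up after these values were seen.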

How the data were processed

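The deposited RIP tables hold raw counts, in whole numbers, for each Lin28a-RIP and Igf2bp3-RIP peak with its position, and for each m6A-RIP row without one. For input RNA the authors deposited estimated counts per gene, made from aligned reads by a program not given in the sources used here. These were rounded. Per the study's methods and the submitters' notes, reads were checked with FastQC and aligned with HISAT2 2.0.4; MACS2 1.4.3 is named for m6A peaks. GRCh38 and mm10 are both named as builds, and the mouse positions match mm10. Each RIP table holds 1 set of peaks counted in all its libraries; the methods name Homer for motifs and annotation, while the caller and threshold for these peaks, the counting program and its use of strand are not given in the sources used here, so antisense and overlapping genes cannot be told apart.

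The Lin28a+ input columns carry m6A-RIP names and both Lin28a+ m6A-RIP columns carry 1 name, so these libraries belong to a group but have no number. Peaks were compared with 1 base as the minimum overlap. CPM used each library's total count in its table. Tests were edgeR 4.0.16 (filterByExpr, TMM, quasi-likelihood, Benjamini-Hochberg) in R 4.3.3, with DESeq2 1.42.0 as an alternative, checked on simulated data. Of 14837 input genes, 14494 (97.7%) were matched to RefSeq identifiers, and 3 genes with Lin28a-only sites had 2 input identifiers each, which were tested and counted separately. RefSeq strand was found for 6563 sites, and chromosome 18 was left out of the sequence searches.

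The sites, gene lists and tests were chosen with earlier results of these data known. Genes were named by rule: the 10 genes with most sites (ties in alphabetical order), the 10 highest sites, and the 5 nearest and 5 farthest sites. The rule also named the 10 genes of highest summed Lin28a-RIP CPM with 3 or more peaks that were all Lin28a-only, and the study's panel and its 3 nearest sites. It further named the 3 higher and 3 lower genes of smallest p without overlap of groups, called nearest Igf2bp3-RIP peaks, and the 2 genes with most sites per list. Alternatives covered the overlap rule, count minimum, scaling, tool and each library left out. Some genes that met this rule are not reported here.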

Additional observations from a re-analysis of the deposited data

How the results depend on the processing

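The number of Lin28a-only sites stayed within 1.5 times of 8366 under all 8 alternatives, from 6502 with transcript in place of gene identifiers to 10392 where an overlap had to cover 50% of each peak. The median distance moved from 2848 bp to 3140 bp between centres and to 3602 bp with Igf2bp3-RIP peaks of at least 100 counts in every library. The ratio of the median CPM per kb of Lin28a-only sites to that of overlapping peaks was 0.925. It was 0.922 to 0.924 without either Lin28a-RIP replicate, 0.867 within genes holding both kinds, 0.933 for peaks with at least 100 counts in both libraries, and 0.928 for peaks of 200 bp to under 300 bp, an alternative chosen after seeing the data, as were those that used the reference gene's extent. The median position was 56.1% along the span of the gene's peaks in place of 60.8%. RNA calls fell from 928 to 410 with DESeq2 and ranged from 774 to 829 when 1 library was left out. m6A-RIP calls ranged from 913 to 931 when 1 library was left out and numbered 2459 of 3856 when rows replaced genes. Scaling to total counts moved the median of all genes in m6A-RIP to -0.09 (171 member genes higher, 850 lower). Igf2bp3-RIP calls depended most on the fit. They numbered 28 with DESeq2, 0 with at least 10 counts in every library, where the Selp peak lost its call, and 9 to 20 without 1 library (17 without control replicate 1, 9 without control replicate 2, 20 without Lin28a+ replicate 1 and 17 without Lin28a+ replicate 2). With a replicate block 407 of the 3984 nearest peaks passed (10.2%), 88 higher and 319 lower, where 10.2% of all peaks did. Same-numbered Igf2bp3-RIP libraries deviated together (correlation 0.703 across peaks), but with 2 pairs the pairing rests on a number only. No paired analysis was possible for RNA and m6A-RIP because the Lin28a+ columns carry no replicate number. Of the named genes and peaks called in the fits as reported none reversed under these alternatives, while 42 of 386 alternative fits of named genes lost the RNA call. The cause of these shifts was not tested.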
